A study of Homo sapiens with 267 samples.

Results

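BCR, ABL1 and 8 genes of the proximal signalling around their fusion product (CRKL, GRB2, GAB2, SOS1, SHC1, STAT5A, STAT5B and CBL) were described in K562 libraries, 10 of the 63677 genes of the deposited count table. The members were the rows whose Ensembl identifiers map to these symbols, and each symbol matched 1 row. K562 is an established human leukaemia line that carries the BCR-ABL1 fusion gene, and the labels give it as the only cell line. Cells were captured on the Fluidigm C1, a microfluidic system with 1 reaction site per cell, in 3 runs told apart by the library titles. Of 267 titles, 263 matched a column of counts, and 242 of these libraries were kept because at most 70% of their reads lay on their top 500 genes.

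All cells were grown in the same medium with serum. The Hoechst run (96 libraries with counts, 82 kept) was untreated, was stained with Hoechst 33342 at 2 µM and propidium iodide at 3.75 µM for 20 min, and was labelled with passages 90 to 92. Both other runs were labelled with passages 20 to 22, and in both the cells carried a fixable red dead cell stain and either CellTracker Green CMFDA or CellTracker Orange CMRA at 1 µM for 30 min. The labels give the passages in hours. In the benzene run the Green libraries (36 with counts, 31 kept) were untreated and the Orange libraries (35 with counts, 34 kept) were labelled with 10 mM benzene for 3 h. In the imatinib run the Green libraries (51 with counts, 50 kept) were untreated and the Orange libraries (45 with counts, all kept) were labelled with 1 µM imatinib for 1 h. Stain and drug go together in both runs and cannot be told apart. By the paper, each experiment held fresh cells and cells fixed with DSP, a reversible cross-linker, and stored before capture. Fresh, fixed and bulk libraries were not told apart here, and the labels name no separate cultures. Each group was therefore taken as 1 sample, single libraries were not used as replicates of a treatment, and no test was made.

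Kept libraries held between 50358 and 2043351 reads on genes, and groups summed to between 42276795 and 104117693 reads. The median number of genes with more than 2 reads was 7410.5 in the Hoechst run, 5905 in the benzene run and 8022 in the imatinib run. Each of 12 K562-defining markers (GATA1, KLF1, the fetal globins and others) was found in 56.9% or more of the kept libraries in all 3 runs. Of 9 markers of other blood cells 7 were below 5% in each run, and CD3D was at 82.9%, 41.5% and 27.4% in the Hoechst, benzene and imatinib runs, while CD3E was at 0%, 0% and 1.05%. The 9 markers summed to 137, 47.4 and 12.5 CPM. Of 4 non-blood markers, EPCAM (84.1%, 78.5% and 86.3%) and KRT19 (80.5%, 40% and 86.3%) were common and COL1A1 and COL1A2 were at most at 10.8%, and the list summed to 133, 110 and 127 CPM. The part of these markers in the results was not tested. CDKN2A, CDKN2B and MTAP, of the 9p21 region that K562 lacks, were detected in 0 of 242 libraries, which allows a share of up to 1.24%.

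The fusion arises where the first part of BCR on chromosome 22 is joined to ABL1 on chromosome 9. BCR gives the fusion protein a domain through which it forms oligomers, and ABL1 gives it a tyrosine kinase that is then always active. The kinase marks itself and its neighbours with phosphotyrosine. The adaptor GRB2 docks there and brings SOS1, which loads RAS with GTP, and GAB2, a scaffold for phosphatidylinositol 3-kinase. SHC1 is a further adaptor to GRB2, CRKL is an adaptor and a main substrate of the kinase, and STAT5A and STAT5B are transcription factors that it switches on. CBL is a ubiquitin ligase that marks active kinases for removal. Imatinib blocks the kinase of ABL1, and the counts measure RNA, not kinase activity.

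The letters at the join show what a count per gene can and cannot tell. K562 is known for the form that joins BCR exon 14 to ABL1 exon 2. The 3 joins are written 5′ to 3′ from GRCh37, both strands being plus, with bases of BCR in lower case and bases of ABL1 in capitals. The BCR exons end at chr22:23632581-23632600 (exon 14) and begin at chr22:23634728-23634747 (exon 15), and the ABL1 exons end at chr9:133710893-133710912 (exon 1) and begin at chr9:133729451-133729470 (exon 2). All are within coding exons.
BCR exon 14 to BCR exon 15, normal BCR: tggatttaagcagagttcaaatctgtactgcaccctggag
ABL1 exon 1 to ABL1 exon 2, normal ABL1: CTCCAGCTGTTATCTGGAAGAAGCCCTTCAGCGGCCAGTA
BCR exon 14 to ABL1 exon 2, the fusion: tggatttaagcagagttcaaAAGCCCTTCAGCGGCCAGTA

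The fusion keeps exons 1 to 14 of the 23 of BCR, 3234 of 6783 bases (47.7%) of its main transcript, and exons 2 to 11 of ABL1, 5306 of 5578 bases (95.1%). A fusion transcript therefore yields reads for the first 14 exons of BCR and for nearly all of ABL1. The table holds 1 count per gene and none per exon or join, so fusion and normal transcripts cannot be told apart in the values below. In this build, 20.6% of the windows of 75 bases within exons of BCR, and 16.9% of those of 100 bases, have an exact copy elsewhere. Of the windows of 75 bases, 7.83% have a copy in the pseudogene BCRP3 and 6.65% in BCRP4, and 1 window can have copies in several places. For ABL1 and CRKL the share was 0% at both lengths. The authors counted uniquely mapped reads, sequenced in pairs of 100 bases in the Hoechst run and 75 in the others. The windows were taken singly and within exons, so their share is not the share of read pairs lost.

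**Figure D1:**
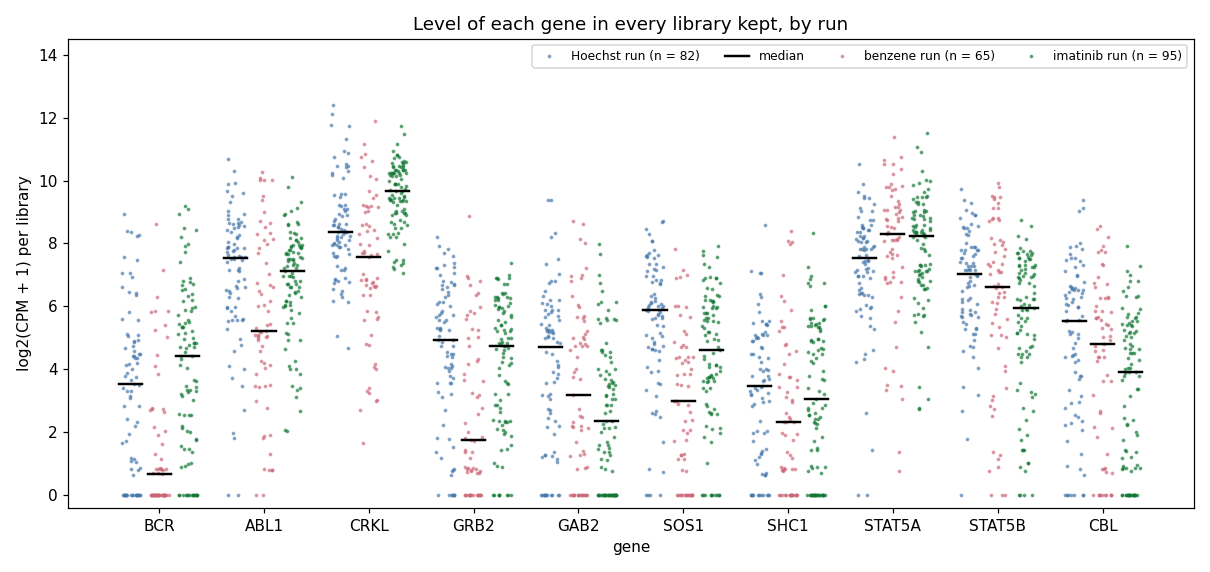
Level of each of the 10 genes in every kept library, as log2(CPM + 1), with 1 point per library, 1 colour per run and a black bar at the median. CRKL and STAT5A lie highest, and the medians of BCR are 10.6, 0.603 and 20.4 CPM in the Hoechst, benzene and imatinib runs.

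BCR (ENSG00000186716, chr22:23521891-23660224, plus strand) was found in fewest libraries of all members in the Hoechst and benzene runs. CPM is the count per 1000000 reads on genes. In the Hoechst run BCR ranged from 0 to 489 CPM with a median of 10.6, in the benzene run from 0 to 394 with a median of 0.603, and in the imatinib run from 0 to 583 with a median of 20.4. The runs overlapped over nearly their whole ranges. BCR had more than 2 reads in 54 of 82 libraries of the Hoechst run (65.9%, exact binomial 95% interval 54.6 to 75.97), in 21 of 65 of the benzene run (32.3%, 21.2 to 45.1) and in 73 of 95 of the imatinib run (76.8%, 67.1 to 84.9). No reads at all were found in 19, 32 and 15 libraries. Libraries with at least 1000000 reads were thinned to that number, and those with fewer were left out. BCR was then detected in 40 of 66, 20 of 65 and 70 of 87 libraries, or 60.6%, 30.8% and 80.5%. In the same libraries before thinning it was detected in 60.6%, 32.3% and 81.6%. The reads of BCR were unevenly spread, and in the benzene run 5 libraries held 70.8% of them.

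ABL1 (ENSG00000097007, chr9:133588430-133763062, plus strand) was found in most libraries. It ranged from 0 to 1632 CPM (median 185) in the Hoechst run, from 0 to 1242 (median 36.05) in the benzene run and from 3.15 to 1103 (median 138) in the imatinib run. It was detected in 80 of 82, 58 of 65 and 95 of 95 libraries. The benzene run was thus the lowest of the 3 for both partners of the fusion, in median and in detection, as it was in genes detected per library, although the summed level of ABL1 was 188 CPM there and 182 in the imatinib run.

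CRKL (ENSG00000099942, chr22:21271695-21308035, plus strand) was the highest member per kilobase of merged exons and the only one detected in every kept library of all 3 runs. In the benzene run STAT5A was above it in median CPM, and per kilobase of the longest transcript (111 against 82.3 CPM in the sums). Its level ran from 24.6 to 5367 CPM with a median of 327 in the Hoechst run, from 2.16 to 3766 with a median of 191 in the benzene run, and from 133 to 3415 with a median of 816 in the imatinib run. Per kilobase of merged exons its summed level was 111, 82.3 and 176 CPM, above 96.6%, 93.3% and 97.3% of the genes compared. The spread of CRKL over libraries was also the smallest of the members in the Hoechst and imatinib runs, with an SD of log2(CPM + 1) of 1.55 and 1.04 where the median over all genes was 2.20 and 1.95.

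The adaptors that link to RAS had lower summed levels per kilobase of merged exons than CRKL, ABL1 and STAT5A in each run. GRB2 (ENSG00000177885, chr17:73314157-73401790, minus strand) had a median of 29.4 CPM in the Hoechst run, 2.41 in the benzene run and 25.6 in the imatinib run, and was detected in 68 of 82, 34 of 65 and 82 of 95 libraries. SOS1 (ENSG00000115904, chr2:39189347-39351486, minus strand), the exchange factor that GRB2 carries, had medians of 57.7, 6.93 and 23.4 CPM and was detected in 76, 43 and 84 libraries. SHC1 (ENSG00000160691, chr1:154934774-154946871, minus strand) had medians of 10.0, 4.02 and 7.39 CPM and was detected in 60, 37 and 64 libraries. By median and detection GRB2 and SOS1 were lowest in the benzene run, as BCR and ABL1 were, while SHC1 varied least between runs, with 1.40% of its variance on the log2 scale lying between them.

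GAB2 (ENSG00000033327, chr11:77926339-78129394, minus strand) and CBL (ENSG00000110395, chr11:119077008-119184636, plus strand) had another order of runs. The median of GAB2 was 25.2 CPM in the Hoechst run, 8.15 in the benzene run and 4.15 in the imatinib run, and that of CBL was 45.9, 26.7 and 14.2. Detection had the same order, with GAB2 in 78.05%, 66.2% and 60% of libraries and CBL in 86.6%, 75.4% and 66.3%. For both the imatinib run, in which most genes were detected per library, was the lowest.

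STAT5A (ENSG00000126561, chr17:40439565-40463961, plus strand) and STAT5B (ENSG00000173757, chr17:40351194-40440651, minus strand) lie head to head and overlap at their starts. The median of STAT5A was 186, 312 and 300 CPM in the Hoechst, benzene and imatinib runs, with detection in 79 of 82, 63 of 65 and 95 of 95 libraries. The median of STAT5B was 129, 96.3 and 60.7 CPM, with detection in 81, 57 and 84 libraries. By median, STAT5A was lowest in the Hoechst run and STAT5B was highest there, while the summed level of STAT5B was higher in the benzene run (207 CPM) than in the Hoechst run (181 CPM). Their coding sequences are 88.9% identical over 2345 aligned bases, with 1 identical run of 429 bases, and 5.40% of the windows of 75 bases within exons of STAT5A have an exact copy elsewhere.

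**Figure D2:**
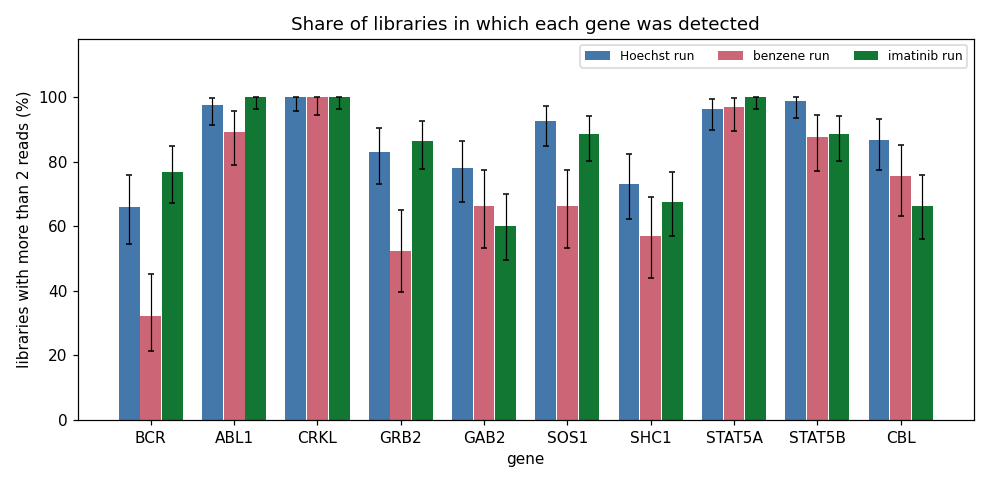
Share of kept libraries with more than 2 reads of each gene, in percent, by run, with exact binomial 95% intervals that cover counting error only. CRKL is at 100% in all runs, and BCR in the benzene run is lowest, at 32.3%.

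Levels of different genes were put in order per kilobase of merged exons, as CPM of the summed reads. Medians and points in CPM are not scaled by length. The order in the Hoechst run was CRKL (111), ABL1 (38.5), STAT5A (38.5), STAT5B (14.9), GRB2 (11.9), GAB2 (9.12), CBL (7.28), SHC1 (5.75), SOS1 (3.67) and BCR (3.46). From first to last these levels spanned 32.1-fold in the Hoechst run, 82.3-fold in the benzene run and 92.9-fold in the imatinib run. CRKL, STAT5A and ABL1 were the first 3 in each run on this length. Of the 9 pairs of neighbours in the order, 0 in the Hoechst run, 0 in the benzene run and 1 in the imatinib run (CRKL over STAT5A, log2 ratio 1.55) differed by more than the mean SD over libraries of the pair. BCR was above 27.9%, 7.83% and 43.3% of the genes compared, with 3.46, 1.22 and 5.01 CPM per kilobase. With the longest transcript in place of merged exons BCR came to 6.24, 2.19 and 9.03, and SOS1 to 9.47, 2.58 and 4.89 where it had 3.67, 1.00 and 1.89. On that length STAT5A led the benzene run with 111, before CRKL with 82.3, and STAT5B (28.1) was just above ABL1 (27.9).

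The members differed in how much of their spread lay between runs. Of the variance in log2(CPM + 1), the part between runs was 23.9% for CRKL, 16.5% for SOS1, 13.4% for BCR and 10.9% for GRB2. The median over 10526 genes was 5.97%. The remaining 6 members lay between 1.40% (SHC1) and 7.29% (ABL1). Libraries of the Hoechst run held a median of 9 detected members, those of the benzene run 7 and those of the imatinib run 9. All 10 were detected together in 27, 7 and 24 libraries.

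**Figure D3:**
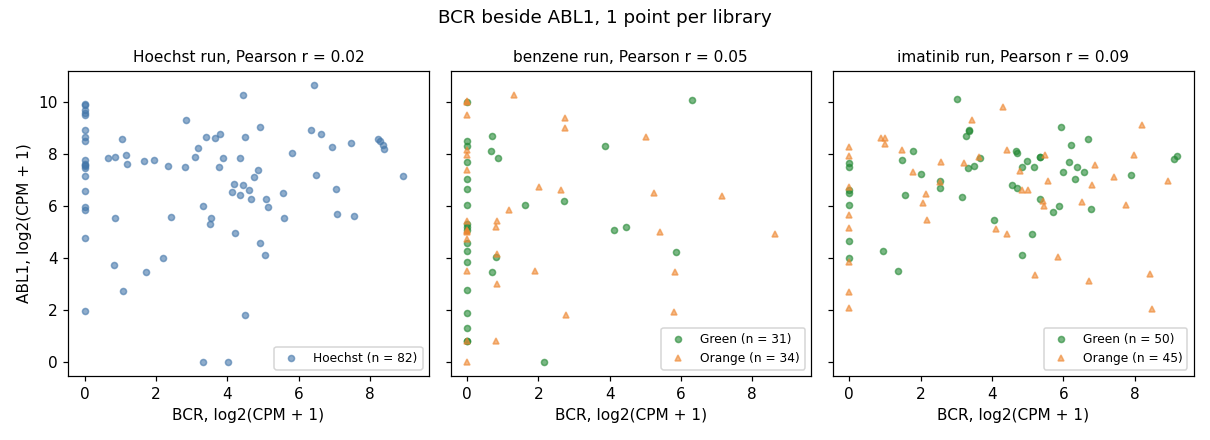
BCR against ABL1 in each kept library, as log2(CPM + 1) on both axes, with 1 panel per run and a marker for each stain. The points form no line in any panel, with r of 0.02, 0.05 and 0.09, and many libraries have ABL1 but no BCR.

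BCR was then set beside ABL1 over libraries. Both were detected in 52 libraries of the Hoechst run, 20 of the benzene run and 73 of the imatinib run. ABL1 alone was detected in 28, 38 and 22 libraries, and BCR alone in 2, 1 and 0. Pearson's r of log2(CPM + 1) was 0.021 over 82 libraries of the Hoechst run, 0.050 over 65 of the benzene run and 0.086 over 95 of the imatinib run. These are weak correlations in sparse counts from libraries that share depth and complexity, and are given only as a description. Within the stains of the imatinib run r was 0.29 in the 50 Green and -0.06 in the 45 Orange libraries. The median of ABL1 was 158 CPM where BCR was detected and 196 where it was not in the Hoechst run, 64.02 and 35.8 in the benzene run, and 156 and 87.1 in the imatinib run.

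Per kilobase of merged exons, the summed level of ABL1 was 11.1 times that of BCR in the Hoechst run, 22.1 times in the benzene run and 5.195 times in the imatinib run. With the longest transcripts the ratios were 6.42, 12.7 and 3.00. ABL1 was above BCR per kilobase in 75 of 82 libraries, 58 of the 64 with reads on either gene, and 85 of 95. In the benzene run, Orange library 39 held 37.4% of the BCR reads and the ratio without it was 35.2, and by stain it was 46.4 in Green and 16.1 in Orange. A fusion transcript covers 47.7% of the main transcript of BCR and 95.1% of that of ABL1, so these ratios do not count transcripts. The paper also reports a mild bias of coverage towards the downstream end of genes in fixed cells. The number of reads lost to the copied windows of BCR is not known from a count table. The part of the fusion, the bias and the copied windows in these ratios was not tested.

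Other pairs of members were about as loosely tied. Over the 45 pairs the median r was 0.05 in the Hoechst run, 0.08 in the benzene run and 0.05 in the imatinib run. The highest r was that of CRKL with CBL in the Hoechst run (0.35), GRB2 with STAT5B in the benzene run (0.37) and BCR with SHC1 in the imatinib run (0.34), and BCR with SHC1 was the lowest pair of the Hoechst run (-0.24). Among genes found in 50% or more of the libraries in all 3 runs, those with the highest mean r to BCR over the 3 runs were DR1 (0.29), FAM168B (0.29) and XPO5 (0.28) among 5098, and those to ABL1 were CCND3 (0.28), DUT (0.28) and TSPAN14 (0.27) among 5097. DR1 is a repressor of transcription, XPO5 exports microRNA precursors, CCND3 is cyclin D3 and DUT removes dUTP. ABL1 stood at rank 2397 in likeness to BCR. For DR1, FAM168B and XPO5, r to BCR was at most 0.15 in the Hoechst run. It was at least 0.39 in the benzene run and 0.30 in the imatinib run. BCR had r of 0.07, 0.31 and 0.31 with the number of genes detected per library in the Hoechst, benzene and imatinib runs. The part of that number in the likeness was not tested.

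Of 59 genes that lie before BCR within 500 kb, 0 were detected in 20% or more of the libraries in any run, against 3 of 9 before ABL1, 4 of 25 after BCR and 5 of 13 after ABL1. These sets are of different kinds, since 39 of the 59 are immunoglobulin segments and 4 are protein-coding, where 6 of the 9 before ABL1 are protein-coding. NUP214, which encodes a nuclear pore protein and lies 238 kb after ABL1, was detected in 100% of libraries, with medians of 688, 636 and 1047 CPM. Per kilobase of exons its summed level was 31.4, 33.97 and 45.3 CPM beside 38.5, 26.8 and 26.02 for ABL1, so that NUP214 was the lower in the Hoechst run and the higher in the others. EXOSC2, a subunit of the RNA exosome, ends 5.75 kb before ABL1 and had medians of 19.8, 2.31 and 147 CPM. FUBP3 (medians 15.1, 0.746 and 11.3 CPM) and ASS1 (0 in each run) lie further before it. FAM78A and AIF1L lie after ABL1 with medians of at most 18.5 CPM, and the long non-coding ENSG00000236986 and ENSG00000246851 share the NUP214 region, with medians of 20.8 to 78.4 and 12.2 to 73.7 CPM. After BCR lie the pseudogenes ZDHHC8BP (detected in 36.6%, 0% and 1.05% of libraries) and ENSG00000272578 (23.2%, 9.23% and 11.6%), CHCHD10, of mitochondria (73.2%, 46.2% and 65.3%), and SMARCB1, a chromatin remodelling subunit (51.2%, 32.3% and 71.6%).

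**Figure D4:**
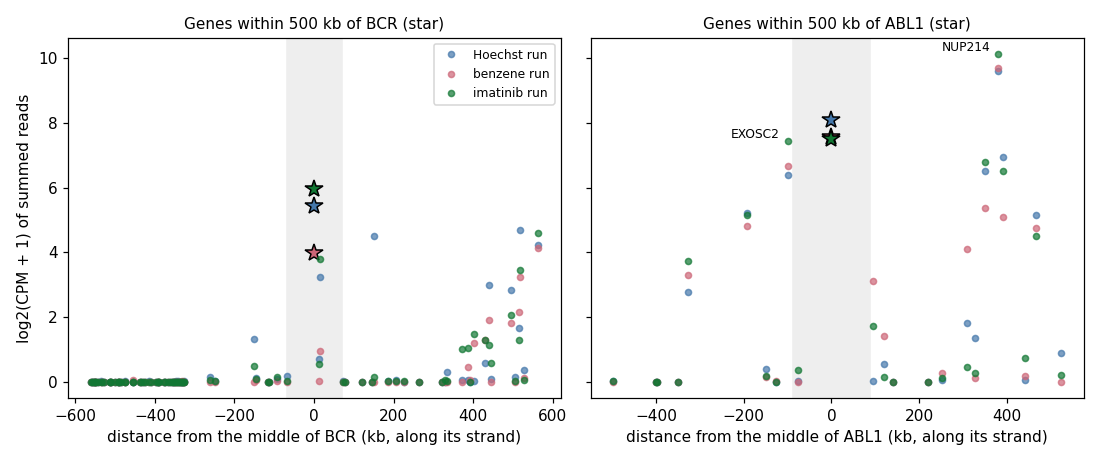
Genes within 500 kb of BCR (left) and ABL1 (right), as log2(CPM + 1) of summed reads by run against distance from the middle of the gene in kb, with the gene itself as a star over its shaded length. Most genes on the left of BCR lie near 0, and NUP214 is the highest point on the right of ABL1, at 776, 840 and 1121 CPM in the Hoechst, benzene and imatinib runs.

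Some members share ground with other genes. FBXW4P1, a pseudogene inside BCR on the same strand, held 2511 reads against 13057 of BCR (19.2%), and BCRP3 held 1.42%. RPL36AP7 within GRB2 held 17.1% of the reads of GRB2, and ENSG00000264853 held 1.77%. PYGO2 overlaps the end of SHC1 and held 75.3% as many reads, and MCAM overlaps the end of CBL from the other strand with 132% as many. Within GAB2 lies ENSG00000254649 (3.16%), within SOS1 lies SOS1-IT1 (2.62%), and within STAT5B lie ENSG00000236194 (7.20%) and ENSG00000267758 (2.71%). Whether strand was used in counting is not given in the sources used here, so reads in shared stretches of opposite genes, STAT5A and STAT5B included, may not be told apart, and the counts of these members are uncertain there.

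The imatinib run was compared for Orange, labelled with imatinib, against Green. A gene was called higher or lower past 1.5-fold on summed CPM with a pseudocount of 1, among genes with more than 2 reads in at least 20% of the libraries of either group. By this rule 9.99% of 11416 genes were higher in Orange and 11.8% were lower. All 10 members passed the filter, of which 1 (10%), CBL, was higher and 0 were lower. The median log2 ratio was -0.02 over the members and -0.02 over all genes.

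CBL ranged from 0 to 239 CPM with a median of 21.8 in the 45 Orange libraries, and from 0 to 154 with a median of 8.65 in the 50 Green libraries. It was detected in 34 Orange and 29 Green libraries. The groups overlapped over most of their range. The summed level was 37.4 CPM in Orange (exact Poisson 95% interval 35.8 to 38.99, counting error only) and 22.5 in Green (21.3 to 23.7), a log2 ratio of 0.71, and the means of log2(CPM + 1) were 3.87 ± 2.34 (SD) and 2.93 ± 2.36. Without Orange library 81, the one with most reads of CBL, the log2 ratio was 0.47, under the threshold.

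ABL1 and BCR did not pass it on summed reads. ABL1 ranged from 3.15 to 893 CPM with a median of 111 in Orange and from 10.2 to 1103 with a median of 166 in Green, detected in every library of both. The sums were 169 CPM (166 to 173) and 193 (190 to 197). Its log2 ratio was -0.19, and -0.59 with equal weight for each library, which passes the threshold. BCR ranged from 0 to 489 CPM with a median of 18.99 in Orange and from 0 to 583 with a median of 23.6 in Green. The sums were 69.2 CPM (67.1 to 71.4) and 54.1 (52.3 to 55.98), while the medians lay the other way round. Its log2 ratio was 0.35, and -0.05 with equal weight. It rested on few libraries, since it reached 0.64 without Green library 59 and also passed the threshold without Green library 38.

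STAT5A ranged from 5.67 to 2144 CPM with a median of 291 in Orange and from 61.1 to 2907 with a median of 327 in Green. The sums were 317 CPM (312 to 322) and 442 (437 to 448), a log2 ratio of -0.48. The lowest Orange libraries lay below all Green ones. With equal weight the ratio was -0.87, past the threshold, and without Orange library 80 it was -0.65. STAT5B went the other way, with medians of 84.1 CPM in Orange and 48.4 in Green and a log2 ratio of 0.27. CRKL had medians of 907 and 673 CPM and a log2 ratio of 0.15, on summed levels of 991 and 895 CPM. GRB2 (-0.34), GAB2 (-0.34), SOS1 (-0.27) and SHC1 (0.46) lay within 1.5-fold. Of these, GAB2 came to -0.71 without Orange library 63 and SHC1 to 0.60 without Green library 23.

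**Figure D5:**
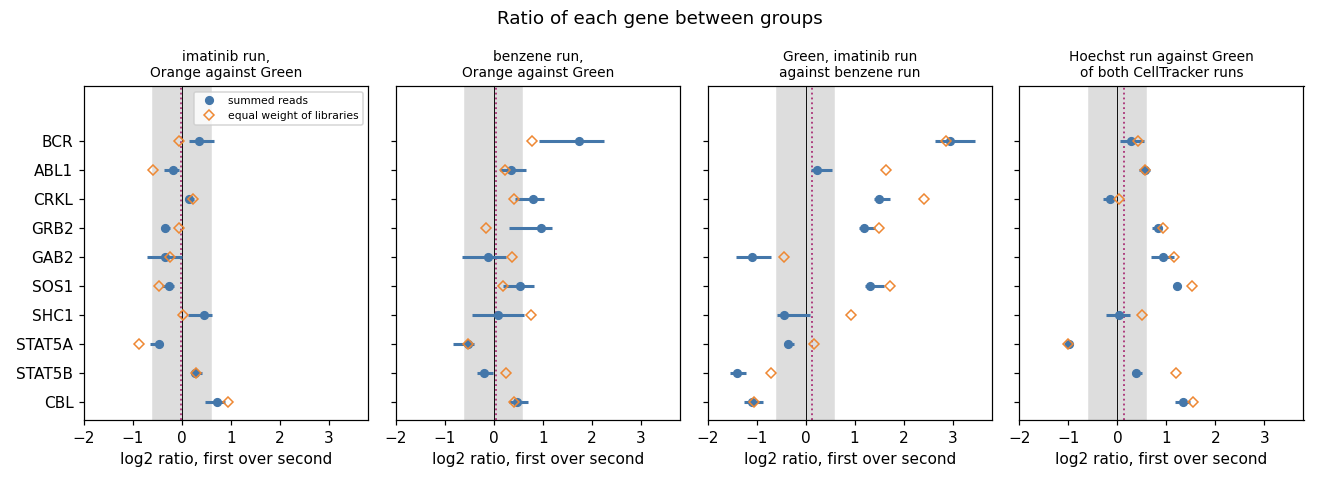
Log2 ratio of each gene in 4 comparisons, from summed reads (filled points), with the range when each library in turn is left out (lines) and with equal weight for each library (open diamonds). Grey marks less than 1.5-fold and the dotted line the median of all genes tested, and in the imatinib run CBL alone has its filled point outside the grey, at 0.71.

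Of 58 other genes of the pathway, 44 passed the filter in the imatinib run, with a median log2 ratio of 0.01. In Orange 7 were higher (15.9%) and 6 lower (13.6%), beside 9.99% and 11.8% of all genes. Of the 41 that passed the filter in both stains, 5 were higher and 5 lower. The 3 highest ratios were those of MAPK3, the kinase ERK1 (1.63, 7.09 against 1.62 CPM), INPP5D, a lipid phosphatase (1.13, 8.56 against 3.36 CPM), and GAB1, a scaffold related to GAB2 (1.02, 13.1 against 5.98 CPM). The 3 lowest were those of CBLB, a ligase related to CBL (-2.16, 0.741 against 6.77 CPM), GRAP2, an adaptor of the GRB2 family (-1.40, 13.02 against 35.9 CPM), and PTPN1, a tyrosine phosphatase (-0.87, 67.7 against 124.7 CPM). MAPK3 passed the filter through Orange alone (33.3% of libraries against 18%) and CBLB through Green alone (24% against 11.1% in Orange), in each case the group where it was higher, so their ratios are given as values only. INPP5D passed through Green alone (22% against 15.6% in Orange). With equal weight INPP5D was at -0.12 and CBLB at -0.54. Among the abundant genes of the list per kilobase, ARAF, a RAF kinase, was at 0.25 and PTPN1 as given, so that they did not share a direction.

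The benzene run carried the same dyes with another drug, and was set beside the imatinib run. Here 24% of 10072 genes were higher and 19.8% were lower in Orange past 1.5-fold. BCR, CRKL and GRB2 were higher and 0 members were lower. BCR ranged from 0 to 394 CPM in Orange and from 0 to 77.8 in Green, with medians of 0.788 and 0, and had 22.9 against 6.17 CPM in the sums, a log2 ratio of 1.73. Orange library 39 held 46.7% of the Orange reads of BCR, and without it the ratio was 0.92. With all libraries, those left out for their top 500 genes included, it was 0.12. GRB2 had medians of 1.80 CPM in Orange and 4.99 in Green against a log2 ratio of sums of 0.96, which fell to 0.30 without Orange library 36. CRKL had medians of 211 and 131 CPM and a log2 ratio of 0.80, or 0.43 without Orange library 92. So 1 library decided each of the calls of CRKL and GRB2.

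The ratios of the other members in the benzene run were -0.52 for STAT5A, -0.21 for STAT5B, -0.12 for GAB2, 0.09 for SHC1, 0.36 for ABL1, 0.48 for CBL and 0.54 for SOS1. ABL1, STAT5A, GAB2, SHC1, CBL and SOS1 each passed the threshold, up or down, when 1 library was left out (2, 2, 1, 1, 3 and 9 such libraries). On summed reads STAT5A and GAB2 had a negative ratio in both runs, and CBL, BCR, CRKL and SHC1 a positive one. ABL1, GRB2, SOS1 and STAT5B differed in sign between the runs. With equal weight for each library, BCR was at -0.05 in the imatinib run and GAB2 at 0.37 in the benzene run. STAT5A, CBL, CRKL and SHC1 kept their signs. Without 1 library GAB2 was at 0.26 and SHC1 at -0.44 in the benzene run. The share of all genes with 1 sign in both runs was not computed. Neither drug is shared by the runs, both have the same dyes, and the difference between the runs was not tested. Of the other genes of the pathway, 14 of 41 tested were higher (34.1%) and 8 lower (19.5%), beside 24% and 19.8% of all genes. Of the 37 that passed the filter in both stains, 12 were higher and 8 lower.

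Green libraries of both runs, untreated and with the same dye, gave the size of a change from run to run. Past 1.5-fold, 31.6% of 11098 genes were higher in the imatinib run and 21.8% lower. Of the members, BCR (log2 ratio 2.94), CRKL (1.49), SOS1 (1.32) and GRB2 (1.18) were higher, and STAT5B (-1.41), GAB2 (-1.09) and CBL (-1.09) were lower. BCR had a median of 23.6 CPM in 50 Green libraries of the imatinib run and of 0 in 31 of the benzene run, with detection in 39 and 8. With all libraries its log2 ratio was 1.36. With equal weight GAB2 was at -0.44, within the threshold, and ABL1 was at 1.65, past it. On summed reads, these 7 ratios were larger in size than every ratio of a member between stains in the imatinib run. Those of ABL1 (0.24), STAT5A (-0.35) and SHC1 (-0.44) were smaller than that of CBL between stains (0.71). With equal weight GAB2 and STAT5B (-0.71) were smaller in size than CBL (0.94) and STAT5A (-0.87) between stains. The runs also differed over all genes, whose median log2 ratio was 0.13 on summed reads and 0.75 with equal weight, and the number of detected genes moved with them (medians of 8082 and 5963 per library). Its part in the ratios of the members was not tested.

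The Hoechst run was set against the Green libraries of both other runs. Passage, lot of cells, dyes, storage time of fixed cells, sequencer, read length and sequencing run changed together and cannot be told apart. Dead cells were sequenced in the run with propidium iodide and left out of the others, by the methods of the study. The median share of reads on mitochondrial genes was 12.5% in the Hoechst run and 6.52% and 6.32% in the Green libraries of the benzene and imatinib runs, and its part in the ratios was not tested. Past 1.5-fold, 32% of 11312 genes were higher in the Hoechst run and 21.9% lower. CBL (1.34), SOS1 (1.21), GAB2 (0.94) and GRB2 (0.83) were higher, and STAT5A, with a ratio 2.00-fold down, was lower. CBL had a median of 45.9 CPM in 82 libraries of the Hoechst run and 12.7 in 81 Green libraries, and SOS1 57.7 and 19.4. STAT5A had 186 and 328, and the ranges overlapped. With RLE size factors GRB2 was at 0.54, under the threshold. ABL1, at 0.57, lay just under it and passed without any 1 of 17 libraries, and CRKL (-0.16), SHC1 (0.02), BCR (0.27) and STAT5B (0.38, or 1.19 with equal weight) within it. Of the other genes of the pathway, 24 of 46 tested were higher (52.2%) and 0 lower by the same rule. Their median log2 ratio was 0.64 beside 0.13 for all genes. Of the 40 that passed the filter in both groups, 20 were higher and 0 lower. With RLE size factors the shares over all genes were 22.7% higher and 32% lower. The pathway genes were not counted with these factors, so their counts are to be read beside the shares on summed CPM only. The Green libraries of each run entered 3 of the 4 comparisons, so the ratios are not independent of each other.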

How the data were processed

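The authors trimmed reads with skewer, aligned them with HISAT2 to GRCh37 with ERCC spike-in sequences, marked duplicates with Picard 1.92 and counted reads with a unique place on Ensembl genes by featureCounts (Subread 1.5.0), and the whole-number counts they deposited were used as they stand. Their deposited CPM table was not used. In the benzene run 4 columns matched no title and 4 titles no column, and neither were used. CPM was computed per 1000000 reads on genes without ERCC sequences. Lengths and coordinates were read from the GENCODE v44lift37 annotation of GRCh37, which holds 55665 of the identifiers. The authors counted on an earlier Ensembl release, so exons absent from it would add length here but no counted reads. Merged exons came to 22984 bases for SOS1 and 12234 for BCR, and their longest transcripts to 8906 and 6783. Ranks and ratios per kilobase depend on these lengths, and the part of the difference between annotations was not tested.

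Libraries were grouped by title run and stain. Each group is 1 sample, so ratios of summed CPM (pseudocount 1) are given with no test. Reads carry no molecular identifiers, and Poisson and binomial intervals (exact, 95%) cover counting error only. Likeness was Pearson's r of log2(CPM + 1) within runs. Exact copies of exon windows were searched on both strands of the genome. Named genes were the 10 members, the 3 highest and 3 lowest pathway ratios in the imatinib run and the 3 most abundant, the 3 genes most like BCR and like ABL1, neighbours within 500 kb detected in 20% of the libraries of any run, and overlaps or copies with at least 1% of a member's reads. A gene that this rule names and a marker gene are not reported here. Members, lists and rules were chosen with earlier results of these data known. Alternatives were other scalings (edgeR 4.0.16, R 4.3.3), pseudocounts of 0.1 and 10, all libraries, equal weight, no filter on low counts, other detection limits and thinning. The steps were tested on simulated data. Python 3.11.15 was used with scipy 1.17.1, pandas 2.3.3, numpy 2.4.6 and matplotlib 3.10.9.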

Additional observations from a re-analysis of the deposited data

How the results depend on the processing

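No paired analysis was possible because each group is 1 sample and no result comes from a test. Over the 40 log2 ratios of members, other settings, with the lowest and highest value when 1 library was left out, changed the sign of 3 of 110 values in the imatinib run, 7 of 70 in the benzene run, 4 of 70 between Green groups and 8 of 80 for the Hoechst run, and moved 11, 18, 5 and 4 values across the 1.5-fold limit. In the imatinib run the members called higher went from 1 to 0 with a pseudocount of 10 CPM, and those called lower from 0 to 2 with equal weight for libraries and to 1 with the largest library of each gene left out. In the benzene run the largest library left out gave 1 higher and 2 lower, RLE size factors gave 1 lower, and GRB2 turned to -0.16 with equal weight. The cause was not tested. RLE size factors turned the share of all genes called higher and lower from 32% and 21.9% to 22.7% and 32% for the Hoechst run, and from 31.6% and 21.8% to 26.04% and 27.8% between Green groups, where equal weight gave 58.3% and 5.46%. They moved the median of all genes from 0.13 to -0.15 and from 0.13 to -0.06. The correlation of BCR with ABL1 was -0.034 by Spearman's rho, 0.21 with all libraries and 0.21 with both genes detected in the Hoechst run. In the benzene run it was -0.0073 with all libraries, -0.098 with both detected and 0.010 after thinning, and in the imatinib run -0.20 with both detected and 0.048 after thinning. Leaving out each library in turn, the ratio of ABL1 to BCR without 1 library and the pathway counts with the filter passed in both groups were added after seeing the data. Leaving out a library moved BCR between 0.15 and 0.64 and CBL between 0.47 and 0.87 in the imatinib run, and BCR between 0.92 and 2.26 in the benzene run. Of 120 other values for detection 31 moved beyond their binomial interval, and of 30 per kilobase 9 moved by over 1.5-fold with the longest transcript. BCR, GAB2 and SHC1 had few reads in many libraries, so that their summed levels rest on few libraries. For GRB2 this held in the benzene run, where 5 libraries held 54.4% of its reads. The same share was 30.7% in the Hoechst run and 19.2% in the imatinib run.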
